A study of Homo sapiens with 10 samples.

Results

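The genes at the tip of the short arm of chromosome 10 were described across 4 groups of PC3 prostate cancer cells. They were taken as every gene whose deposited locus lay on chromosome 10 (hg19) with a start below 15.5 Mb, with symbols that begin with SLC left out, although the window held 0 of these. The rule gave 86 of the 23170 genes in the tables. The window had been picked because its genes were higher in PC3-Epi than in PC3-EMT14, so that comparison is given as a description with nothing read from it. Of the 86 genes, 51 had a mean FPKM (fragments per kilobase of transcript, scaled to the fragments of the library, a level per transcript length) of at least 1 over the 4 groups. Over the whole series 12106 genes did.

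The series holds RNA-seq of 10 samples from the human line PC3, which was derived from a prostate cancer metastasis. PC3-Epi (2 samples) is a luciferase-positive subpopulation of PC3, chosen by the study for its light signal and its epithelial shape. PC3-EMT14 (3 samples) is a mesenchymal population that was isolated after PC3-Epi had been grown with IL4-treated macrophages. Its derivatives carry lentiviral OVOL1 (PC3-EMT14-OVOL1, 3 samples) or OVOL2 (PC3-EMT14-OVOL2, 2 samples), transcription factors of the zinc finger type. The mesenchymal cells thus descend from PC3-Epi, and both OVOL lines descend from the 1 population PC3-EMT14. The control for the OVOL lines was PC3-EMT14, which the paper calls parental, and no group is named as carrying an empty vector. The deposited tables hold 1 pooled FPKM per group and comparison, so no value below has an SD, an n or a test, and the depth of the samples is unknown.

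The epithelial markers EPCAM, CDH1, KRT8 and KRT18 were all higher in PC3-Epi and both OVOL lines than in PC3-EMT14. The mesenchymal markers VIM, ZEB1, FN1 and CDH2 were all lower, by unequal amounts. FN1 was listed at 36.8 FPKM in PC3-EMT14, 33.8 FPKM in PC3-Epi, and 18.4 and 16.5 FPKM in the OVOL1 and OVOL2 lines. In the OVOL1 line the log2 ratios ran from 0.45 (KRT18) to 4.05 (CDH1) and from −0.97 (FN1) to −0.40 (CDH2). CDH1, which encodes E-cadherin, was listed at 1.00 FPKM in PC3-EMT14 against 50.6 FPKM in PC3-Epi, 16.2 FPKM in PC3-EMT14-OVOL1 and 39.2 FPKM in PC3-EMT14-OVOL2. OVOL1 reached 11.3 FPKM in its own line and OVOL2 reached 831 FPKM in its own. Of 6 macrophage markers, PTPRC, CD14, CD163, CSF1R and TYROBP were at most 0.0921 FPKM in every group, while CD68 lay between 13.2 and 57.8 FPKM. Of the prostate markers, KLK3 was listed at 0 in every group, and HOXB13 ranged from 22.2 FPKM in PC3-Epi to 89.8 FPKM in PC3-EMT14. In bulk RNA, a smaller share of cells and less RNA per cell cannot be told apart.

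The end of 10p holds genes of unrelated function side by side. GATA3 is a zinc finger transcription factor of luminal epithelia, KLF6 a Krüppel-like factor, and AKR1C1, AKR1C2 and AKR1C3 form a cluster of aldo-keto reductases that act on steroid hormones. PFKP, PFKFB3 and ATP5C1 serve glycolysis and the mitochondrial ATP synthase, and MCM10 is needed to start DNA replication. PC3 has a rearranged karyotype, and DNA was not measured in these samples.

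Promoter sequences were taken from RefSeq (GRCh38.p14) and placed on GRCh37 by exact match. They are shown for the genes with the highest ratios in a comparison, which are described one by one further on. Each of the first 3 runs is the 250 bases before a RefSeq start, on the plus strand, with the start nearest to the deposited locus used where several are listed. None of the 3 held CACCTG, the E-box bound by ZEB1, on either strand. CCGTTA, a form of the core bound by OVO proteins, was also absent on both strands, and so no letters are in capitals. The paper's OVOL2 consensus also allows A for the first C and T for the second, and those forms were not searched. Positions are chr10:8096401-8096650 for GATA3, chr10:13203308-13203557 for MCM10 and chr10:11865105-11865354 for C10orf47, which RefSeq calls PROSER2.
GATA3: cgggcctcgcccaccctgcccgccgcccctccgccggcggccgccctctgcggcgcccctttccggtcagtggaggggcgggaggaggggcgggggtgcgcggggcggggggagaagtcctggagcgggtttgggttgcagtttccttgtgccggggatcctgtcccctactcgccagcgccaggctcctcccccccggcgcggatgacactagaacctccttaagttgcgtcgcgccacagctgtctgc
MCM10: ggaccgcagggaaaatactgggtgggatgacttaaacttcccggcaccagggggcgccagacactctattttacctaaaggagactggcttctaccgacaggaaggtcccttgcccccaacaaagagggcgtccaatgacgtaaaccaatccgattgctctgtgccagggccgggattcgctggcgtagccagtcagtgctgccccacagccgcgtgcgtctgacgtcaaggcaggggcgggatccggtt
C10orf47: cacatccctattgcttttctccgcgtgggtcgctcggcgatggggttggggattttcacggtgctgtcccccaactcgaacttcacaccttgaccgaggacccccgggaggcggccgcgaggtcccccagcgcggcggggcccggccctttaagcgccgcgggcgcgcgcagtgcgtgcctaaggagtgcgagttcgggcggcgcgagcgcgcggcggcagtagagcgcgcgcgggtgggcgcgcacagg
For IL15RA, on the minus strand, only the pair of 30-base stretches around its E-boxes is shown, at chr10:6020063-6020092 and chr10:6020019-6020048. Both lie before a RefSeq start but inside the deposited locus of the gene, which ends at 6020142, and so not upstream of that locus. The capitals mark CAGGTG, the reverse complement of CACCTG.
IL15RA site 1: cgcgggagccagCAGGTGgcgggggctgcg
IL15RA site 2: gagcgcaccaggCAGGTGcccgcgcctccg

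Of the 51 expressed genes, 47 had a promoter in the RefSeq table, 4 of them under a newer symbol. LOC100216001, SFTA1P, LOC283070 and HSPA14 had no matching promoter there. Over the first start listed for each gene, CACCTG on either strand was found in 10 of the 47 promoters (21.3%). It was found in 15.5% of the 9293 promoters of expressed genes in the whole series and in 17.5% of all 27305 promoters listed. CCGTTA, the only OVO form searched, was in 0 of the 47, against 3.28% of expressed genes and 2.52% of all listed promoters. The median GC content was 68% in the 47 and 65.2% in expressed genes overall. A match to these letters is a description of the window and not a binding site.

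In PC3-Epi the expressed genes of the tip were higher than in PC3-EMT14 along nearly the whole window. The median log2 ratio was 0.85, or 1.80-fold, with an interquartile range from 0.37 to 1.16. Of the 51, 46 were higher in PC3-Epi, where 49% of all expressed genes were. A ratio of at least 2-fold higher was seen for 19 of the 51, against 6.46% of all expressed genes, and 0 of the 51 were 2-fold lower, against 7.48%. The median over all genes was −0.02 on the same scale. These counts describe the contrast on which the window was picked. Summed over the 51 genes, the FPKM was 501 in PC3-EMT14 and 904 in PC3-Epi.

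The OVOL lines did not show such a displacement of the whole window. In PC3-EMT14-OVOL1 the median log2 ratio to PC3-EMT14 was 0.07 (all genes, 0.00), with 31 of 51 genes higher against 50.5% of all genes. In this line 2 of the 51 were at least 2-fold higher (background 2.54%) and 0 were 2-fold lower (1.13%). In PC3-EMT14-OVOL2 the median was −0.04 (all genes, −0.04), with 22 of 51 higher against 44%. Here 2 of the 51 were 2-fold higher (4.06%) and 1 was 2-fold lower (2.41%). The share of members within 0.5 of no change on the log2 scale was 90.2% for OVOL1 and 84.3% for OVOL2, near the 89.4% and 82.7% of all genes, and it was 25.5% for PC3-Epi against 64.5%. All 3 comparisons share the PC3-EMT14 libraries, so their ratios are not independent of each other.

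**Figure D1:**
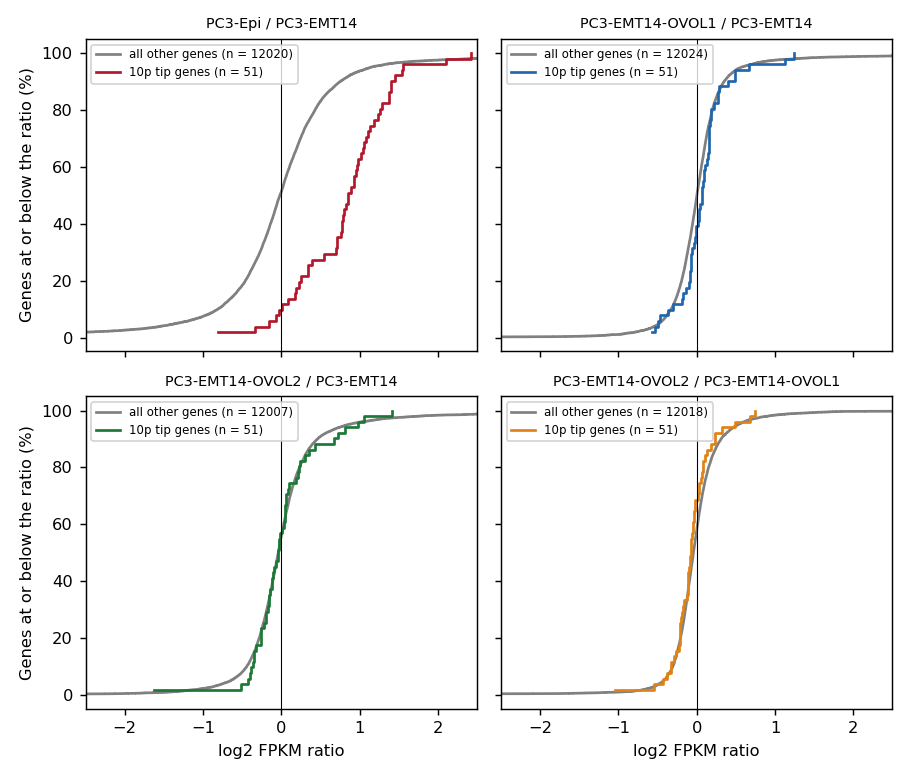
Cumulative share of genes (percent, vertical axis) at or below each log2 FPKM ratio (horizontal axis) in the 4 comparisons, with the 51 expressed genes of the 10p tip in colour and all other expressed genes in grey. The coloured curve lies to the right of the grey one in PC3-Epi against PC3-EMT14, where the medians are 0.85 and −0.02, and runs close to it in the other 3 panels.

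The OVOL lines were also compared with each other, which uses no library of PC3-Epi or PC3-EMT14. The median log2 ratio of OVOL2 to OVOL1 was −0.08, and it was −0.04 over all genes. Of the 51 genes, 16 were higher in the OVOL2 line, against 42.1% of all genes. None was 2-fold higher (background 1.61%) and 1 was 2-fold lower (1.15%). Across the 51 genes the ratio of OVOL2 to OVOL1 had a Pearson correlation of −0.09 and a Spearman correlation of −0.11 with the ratio of PC3-Epi to PC3-EMT14. Genes are not independent replicates, and the values share neither library nor table.

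Position was examined along chromosome 10 in steps of 2.5 Mb. In PC3-Epi the 6 steps up to 15 Mb had median log2 ratios of 0.98, 0.63, 0.79, 0.96, 1.10 and 0.93 from the end of the arm inwards. The next step, which holds the 15.5 Mb limit, stood at 0.48, and the following ones at 0.40, 0.12 and −0.32. The listed medians declined from 15 Mb on over several steps, with no sharp end at the limit. They describe the ratio on which the window was picked. The rest of 10p (57 expressed genes) had a median of 0.01 and 10q (372 genes) of −0.17. In the same first 6 steps the OVOL1 medians lay between −0.03 and 0.16 and the OVOL2 medians between −0.09 and −0.01.

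**Figure D2:**
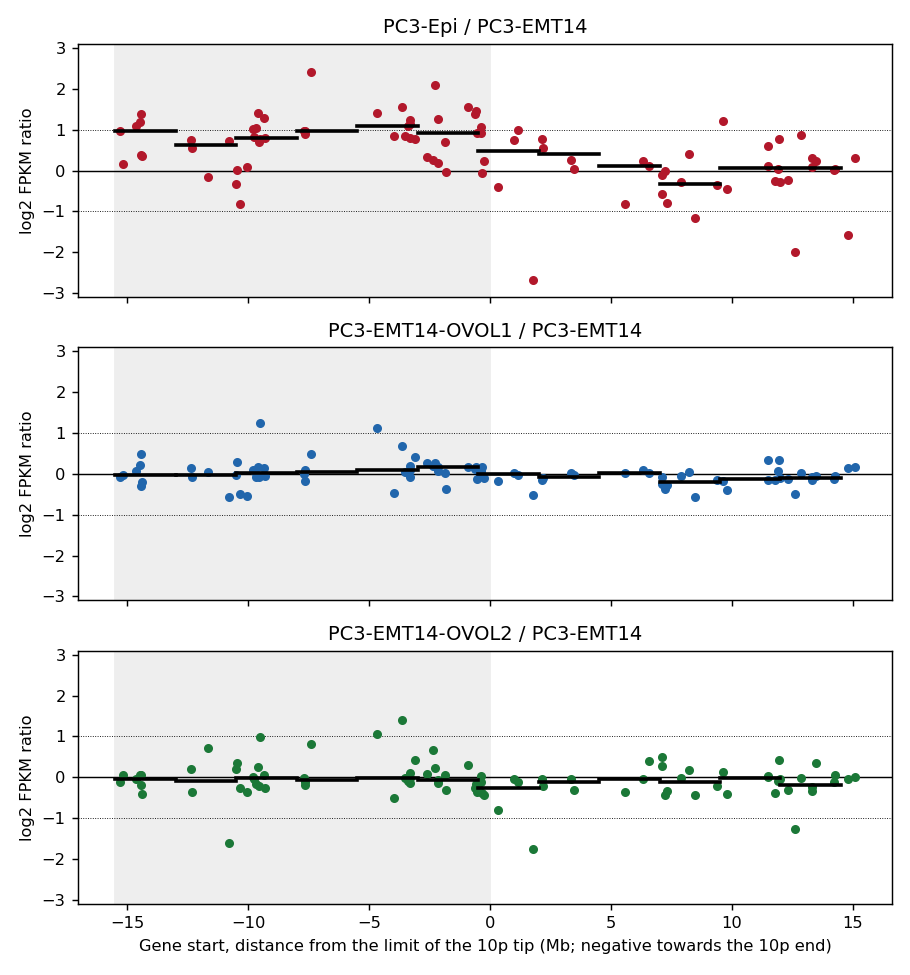
Log2 FPKM ratio (vertical axis) of expressed genes of chromosome 10 against the distance of the gene start from the limit of the window (horizontal axis, Mb, negative towards the end of 10p), with the window shaded and black bars for the median of each full 2.5 Mb step. In PC3-Epi the step medians within the shading run from 0.63 to 1.10 up to the last step, whereas in both OVOL panels they stay near 0.

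The limit itself was not sharp. Among the last genes inside, RPP38, a subunit of ribonuclease P, had a log2 ratio of 1.06 in PC3-Epi, NMT2, an N-myristoyltransferase, of −0.06 and FAM171A1 of 0.23. C10orf111 and LOC100192204 had mean levels of 0.075 and 0.090 FPKM. Among the first genes outside, ITGA8 was listed at 0 in every group and C1QL3 stood at 0.216 FPKM. FAM188A had a log2 ratio of −0.40, PTER of 0.74 and RSU1, a suppressor of Ras signalling, of 0.99. The gene for the mesenchymal filament VIM, further out, had 271 FPKM in PC3-EMT14 against 42.5 FPKM in PC3-Epi, a log2 ratio of −2.67, while its neighbours PTPLA and STAM stood at 0.77 and 0.55.

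Across the genome, 183 windows of 15.5 Mb held at least 20 expressed genes each. The 10p tip had the second highest median of these in PC3-Epi, after a window on chromosome 8 from 46.5 to 62 Mb with 25 genes and a median of 0.87. The 10p tip was picked on this ratio, and the windows were given its length. Its rank in PC3-Epi is thus a description with nothing read from it. In 9 of the windows the median was at least 0.5, and the others ranged down to −0.56. The genes of 2q11 to 2q22 (164 genes) had a median of 0.50. For the OVOL1 line the 10p tip ranked 18 among the 183 windows, for the OVOL2 line 74, and for OVOL2 against OVOL1 110. No window median reached 0.5 in these 3 comparisons, whose highest other windows stood at 0.22, 0.25 and 0.14.

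**Figure D3:**
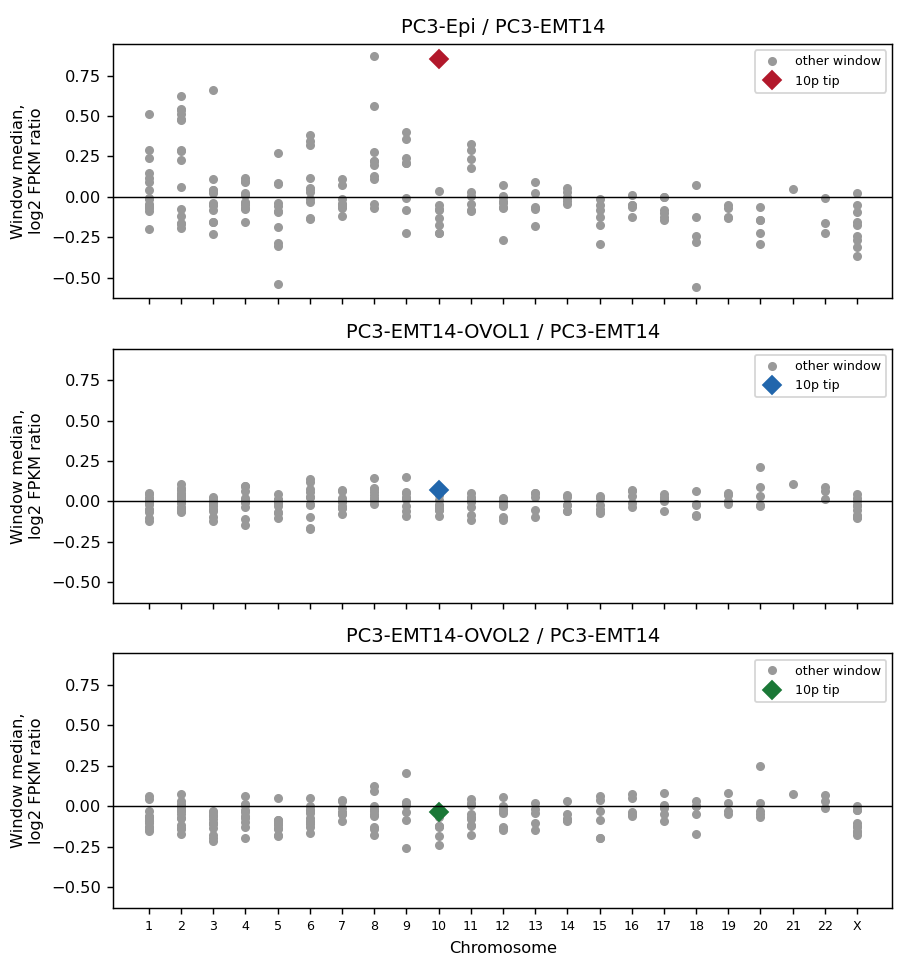
Median log2 FPKM ratio (vertical axis) of each 15.5 Mb window with at least 20 expressed genes, by chromosome (horizontal axis), with the 10p tip as a coloured diamond and other windows as grey points. The diamond stands at 0.85 in PC3-Epi, next to a highest grey point of 0.87, and at 0.07 and −0.04 in the OVOL panels. The 10p tip was picked on the PC3-Epi ratio.

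The median ratio in PC3-Epi was also taken over subsets of the members, as a description. By level, the median log2 ratio was 0.85 for the 23 genes under 5 FPKM, 0.84 for the 18 genes from 5 to under 20 FPKM and 0.96 for the 10 genes at 20 FPKM or more. The level is a mean that includes PC3-Epi, so a higher ratio can itself move a gene into a higher class. By position, it was 0.72 below 5 Mb (11 genes), 0.86 from 5 to 10 Mb (16 genes) and 0.93 from there to the limit (24 genes). By strand, the 25 genes on the plus strand and the 24 on the minus strand that could be matched to GENCODE both had a median of 0.89. Single genes varied, and 29 of the 51 lay within 0.5 of the median of the window.

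**Figure D4:**
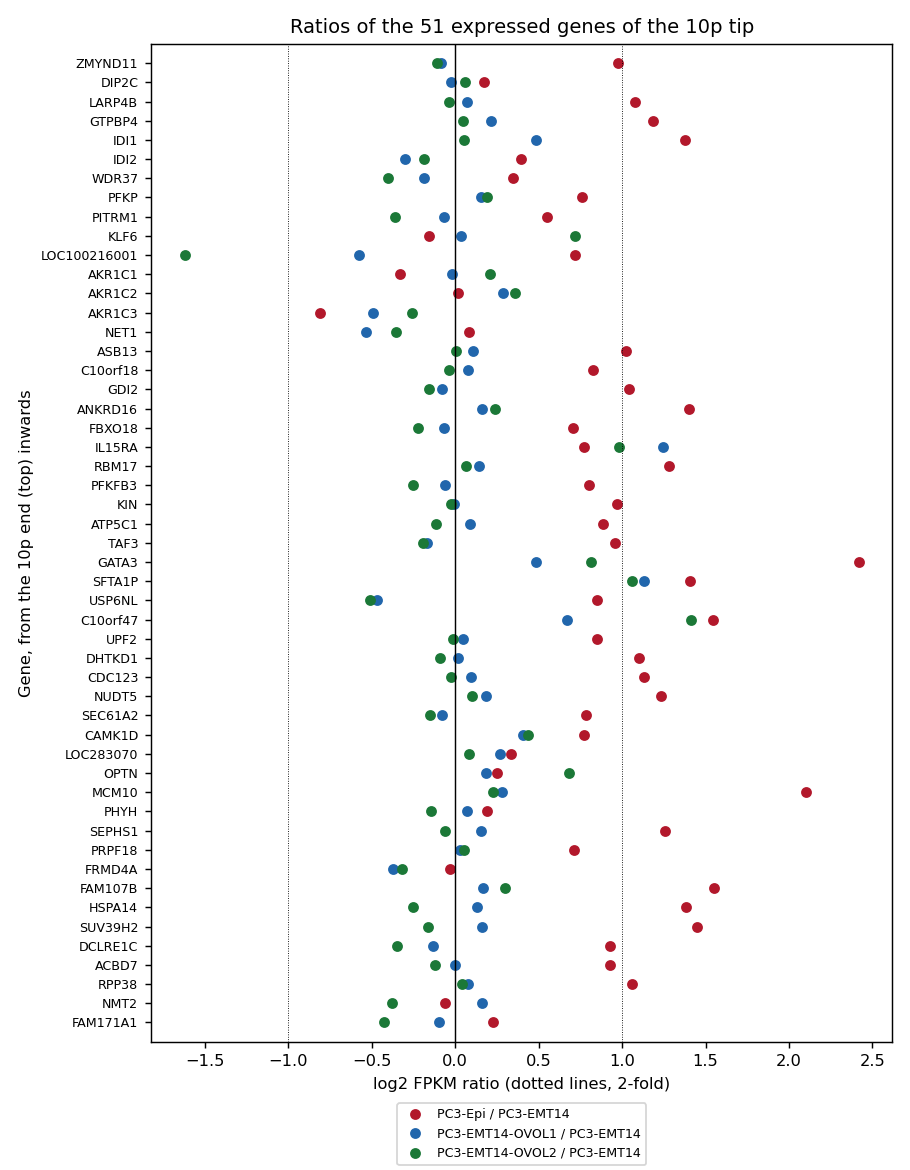
Log2 FPKM ratio (horizontal axis, dotted lines at 2-fold) of each of the 51 expressed genes of the 10p tip, ordered from the chromosome end at the top, for PC3-Epi (red), PC3-EMT14-OVOL1 (blue) and PC3-EMT14-OVOL2 (green) against PC3-EMT14. The interquartile range of the red points is 0.37 to 1.16 while most blue and green points lie near 0, and GATA3 (2.42) and MCM10 (2.10) extend furthest to the right.

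The 6 genes of transcription and chromatin past the floor had a median log2 ratio of 0.97 in PC3-Epi, with 2 at least 2-fold higher. The window was picked on this ratio, and of its 51 genes 46 were higher in PC3-Epi and 19 at least 2-fold higher. Over all expressed genes these shares were 49% and 6.46%. GATA3 was listed at 1.02 FPKM in PC3-EMT14 against 5.46 FPKM in PC3-Epi, a 5.34-fold ratio and the highest of the members. It was 1.40 FPKM in the OVOL1 line and 1.74 FPKM in the OVOL2 line, log2 ratios of 0.48 and 0.81. Both OVOL lines were thus above PC3-EMT14 but under PC3-Epi for GATA3. SUV39H2, a histone H3 lysine methyltransferase, had 2.71 FPKM in PC3-EMT14 against 7.40 FPKM in PC3-Epi, with 2.97 and 2.34 FPKM in the OVOL1 and OVOL2 lines. ZMYND11, a reader of modified histone H3, stood at 5.28 FPKM in PC3-EMT14 against 10.4 FPKM in PC3-Epi, and at 4.88 and 4.73 FPKM in the OVOL lines. TAF3, a subunit of the general factor TFIID, and DIP2C had log2 ratios of 0.96 and 0.17 in PC3-Epi. KLF6 had another order of groups. It was 14.2 FPKM in PC3-EMT14, 12.8 FPKM in PC3-Epi, 14.3 FPKM in the OVOL1 line and 22.7 FPKM in the OVOL2 line, so that the OVOL2 line alone stood apart, with a log2 ratio of 0.72.

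**Figure D5:**
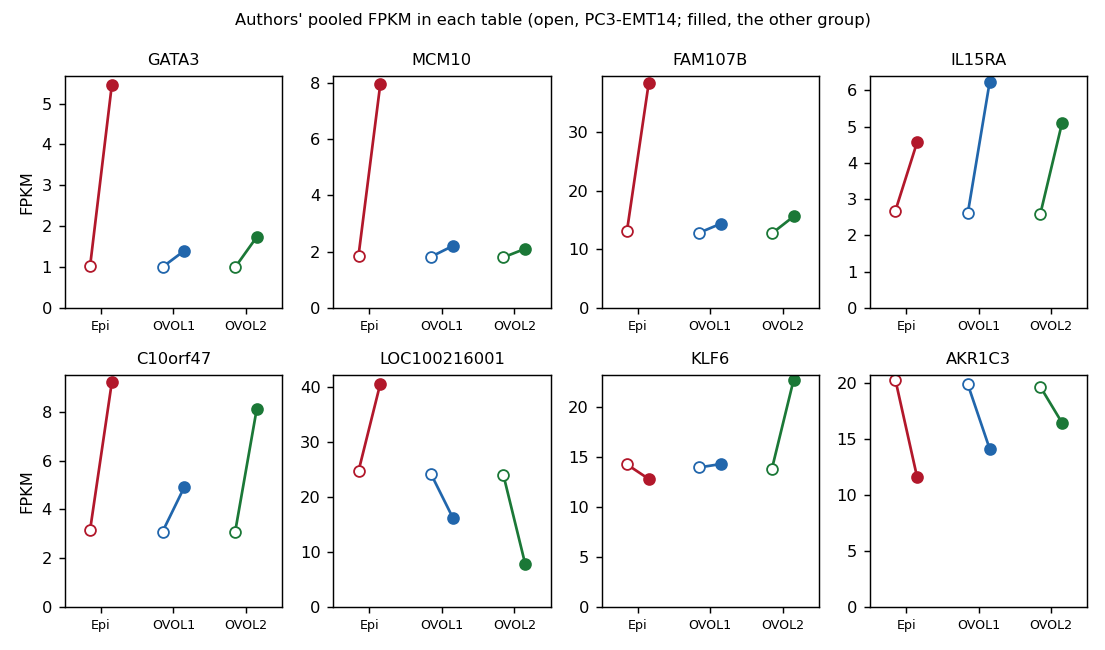
Authors' pooled FPKM (vertical axis, from 0) of 8 genes in the table of each comparison (horizontal axis), with the PC3-EMT14 value as an open point and the other group as a filled point. GATA3, MCM10 and FAM107B are highest in PC3-Epi (5.46, 7.95 and 38.4 FPKM), IL15RA is highest in the OVOL1 line (6.22 FPKM), KLF6 in the OVOL2 line (22.7 FPKM), and AKR1C3 in PC3-EMT14.

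The 7 genes of RNA processing and translation were all higher in PC3-Epi, with a median log2 ratio of 1.08 and 5 of them at least 2-fold higher. In the window as a whole, which was picked on this ratio, 46 of 51 genes were higher and 19 at least 2-fold higher. The shares of all expressed genes were 49% and 6.46%. CDC123, an assembly factor of the translation initiation factor eIF2, had 26.1 FPKM in PC3-EMT14 against 57.2 FPKM in PC3-Epi, with 27.2 and 24.8 FPKM in the OVOL1 and OVOL2 lines. It shares a deposited locus with NUDT5 and SEC61A2, so that reads of the 3 genes can be hard to divide. GTPBP4, a GTPase of ribosome assembly, had 17.4 FPKM in PC3-EMT14 against 39.6 FPKM in PC3-Epi, with 19.8 and 17.4 FPKM in the OVOL lines. The splicing factor RBM17 had 8.5 FPKM in PC3-EMT14 against 20.6 FPKM in PC3-Epi, with 9.17 and 8.61 FPKM in the OVOL lines. LARP4B, an RNA-binding protein of the La family, UPF2, of nonsense-mediated decay, and the splicing factor PRPF18 had log2 ratios of 1.08, 0.85 and 0.71 in PC3-Epi. In the OVOL1 line the 7 log2 ratios ranged from 0.03 to 0.22 and in the OVOL2 line from −0.04 to 0.06.

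The 9 expressed genes listed under glycolysis, mitochondria and metabolism had a median log2 ratio of 0.89 in PC3-Epi, 0.13 in the OVOL1 line and −0.12 in the OVOL2 line. The list also counts the chaperone HSPA14 and the N-myristoyltransferase NMT2. ATP5C1, the gamma subunit of the ATP synthase and the member with the highest level, had 77.4 FPKM in PC3-EMT14 against 143 FPKM in PC3-Epi. Its levels in the OVOL1 and OVOL2 lines were 80.6 and 69.1 FPKM. PFKP, a phosphofructokinase of glycolysis, had 41.3 FPKM in PC3-EMT14 against 69.8 FPKM in PC3-Epi, and 45.0 and 45.6 FPKM in the OVOL lines. NUDT5, which hydrolyses ADP-ribose, had 20.5 and 48.3 FPKM in PC3-EMT14 and PC3-Epi, a 2.35-fold ratio. PITRM1, a mitochondrial peptidase, was nearer to even, with 23.6 and 34.7 FPKM. DHTKD1, of lysine breakdown, SEPHS1, of selenium metabolism, and the chaperone HSPA14 had log2 ratios of 1.10, 1.26 and 1.38 in PC3-Epi. NMT2 was the 1 gene of this list that was lower in PC3-Epi.

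The 4 genes of DNA replication and repair had a median log2 ratio of 0.95 in PC3-Epi. All 4 were higher there, as were 46 of the 51 genes of the window, which was picked on this ratio. Over all expressed genes the share was 49%. MCM10 was listed at 1.86 FPKM in PC3-EMT14 against 7.95 FPKM in PC3-Epi, a 4.29-fold ratio. It was 2.20 FPKM in the OVOL1 line and 2.10 FPKM in the OVOL2 line, both close to PC3-EMT14. FBXO18, a DNA helicase, had 7.89 and 12.8 FPKM in PC3-EMT14 and PC3-Epi, and KIN, a DNA-binding protein, had 3.31 and 6.46 FPKM. DCLRE1C, the Artemis nuclease of end joining, had 1.56 and 2.97 FPKM.

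The aldo-keto reductases and lipid or steroid enzymes were the list nearest to even in PC3-Epi. Of 12 genes 7 were past the floor, with a median log2 ratio of 0.19. Of these 7, 1 was at least 2-fold higher, against 19 of 51 in the window and 6.46% of all expressed genes. AKR1C3, which makes testosterone from androstenedione, had 20.3 FPKM in PC3-EMT14 against 11.6 FPKM in PC3-Epi, the lowest ratio of all members at −0.81. It was also lower in the OVOL1 line (14.1 FPKM) and in the OVOL2 line (16.4 FPKM), log2 ratios of −0.49 and −0.26. AKR1C1 stood at 3.33 FPKM in PC3-EMT14 against 2.64 FPKM in PC3-Epi, and AKR1C2 at 1.14 and 1.15 FPKM. These paralogs are alike in sequence and their reads can be split wrongly between them. IDI1, an isomerase of cholesterol synthesis, was the 2-fold higher gene, with 11.3 and 29.5 FPKM, and it shares a locus with IDI2 and IDI2-AS1. PHYH, a peroxisomal hydroxylase, had 6.26 and 7.15 FPKM. ACBD7, which binds acyl-CoA, had 2.36 and 4.48 FPKM. Outside the region, 13 expressed targets of the oxidative stress factor NRF2 had a median log2 ratio of −0.00 in PC3-Epi, −0.03 in the OVOL1 line and −0.07 in the OVOL2 line. Single targets varied widely. In PC3-Epi 6 were higher and 7 lower, where 49% of all expressed genes were higher. The log2 ratios ran from −0.97 for TXNRD1 to 3.14 for AKR1B10, which stood at 3.12 and 3.77 in the OVOL1 and OVOL2 lines.

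The 10 expressed genes of trafficking, cytoskeleton and GTPase regulation had a median log2 ratio of 0.56 in PC3-Epi, −0.09 in the OVOL1 line and −0.24 in the OVOL2 line. GDI2, a regulator of Rab GTPases, had 38.8 FPKM in PC3-EMT14 against 79.8 FPKM in PC3-Epi, against 36.0 and 33.7 FPKM in the OVOL lines. FAM107B had 13.1 and 38.4 FPKM in PC3-EMT14 and PC3-Epi, and 14.4 and 15.6 FPKM in the OVOL1 and OVOL2 lines. NET1, an exchange factor for RhoA, was 30.3 FPKM in PC3-EMT14 against 32.1 FPKM in PC3-Epi, and lower in the OVOL1 line (20.4 FPKM) and the OVOL2 line (23 FPKM). FRMD4A, a scaffold of cell polarity, was 2.96 and 2.90 FPKM in PC3-EMT14 and PC3-Epi. OPTN, an autophagy receptor, was at 5.78 FPKM in PC3-EMT14, 6.86 FPKM in PC3-Epi, 6.42 FPKM in the OVOL1 line and 8.96 FPKM in the OVOL2 line. USP6NL, a GTPase-activating protein for Rab proteins, went in opposite directions, with a log2 ratio of 0.85 in PC3-Epi, −0.47 in the OVOL1 line and −0.51 in the OVOL2 line. CAMK1D, a calcium-dependent kinase, was higher in all 3 lines, with log2 ratios of 0.77, 0.40 and 0.43. WDR37 and FAM171A1 were among the 5 lowest in the OVOL2 line, at −0.41 and −0.43.

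A few members differed in the OVOL lines, in numbers near the share of all genes. In each line 2 of the 51 were at least 2-fold higher, against 2.54% (OVOL1) and 4.06% (OVOL2) of all genes. IL15RA, the alpha chain of the interleukin 15 receptor, had 2.68 FPKM in PC3-EMT14, 4.57 FPKM in PC3-Epi, 6.22 FPKM in the OVOL1 line and 5.11 FPKM in the OVOL2 line. All 3 lines thus stood above PC3-EMT14, with the OVOL1 line highest, and the log2 ratios were 0.77, 1.25 and 0.98. Of the other genes listed with the cytokine receptors, ASB13, a substrate receptor of a ubiquitin ligase, had 2.59 FPKM in PC3-EMT14 against 5.27 FPKM in PC3-Epi. Its log2 ratios were 0.11 and 0.01 in the OVOL lines. IL2RA was listed at 0 in every group and PRKCQ was near 0. SFTA1P, a noncoding transcript, was 2.28 FPKM in PC3-EMT14, 6.03 FPKM in PC3-Epi, 4.88 FPKM in the OVOL1 line and 4.60 FPKM in the OVOL2 line. C10orf47 was 3.15 FPKM in PC3-EMT14, 9.21 FPKM in PC3-Epi, 4.91 FPKM in the OVOL1 line and 8.13 FPKM in the OVOL2 line. Of all members it had the highest ratio of OVOL2 to OVOL1, with a log2 value of 0.74, followed by KLF6 at 0.68 and OPTN at 0.49.

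LOC100216001, a noncoding locus, was the member with the lowest OVOL ratios. It was listed at 24.7 FPKM in PC3-EMT14, 40.6 FPKM in PC3-Epi, 16.2 FPKM in the OVOL1 line and 7.78 FPKM in the OVOL2 line. PC3-Epi was thus highest and the OVOL2 line lowest, with log2 ratios to PC3-EMT14 of 0.72, −0.57 and −1.62. Between the OVOL lines it was the 1 member past 2-fold, with a log2 ratio of −1.05. Among the other members of no role list, C10orf18, ANKRD16 and LOC283070 had log2 ratios of 0.83, 1.40 and 0.34 in PC3-Epi. The deposited locus of LOC100216001 is shared with LOC338588. Between the OVOL lines, NMT2, IDI1, HSPA14 and FAM171A1 came next in the order, at −0.54, −0.43, −0.38 and −0.33.

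The isoform values come from the same reads as the gene values, so a like picture was given in advance. Of 148 isoforms of the 86 genes, 58 had a mean FPKM of at least 1. Their median log2 ratio was 0.93 in PC3-Epi, 0.07 in the OVOL1 line and −0.04 in the OVOL2 line. Over all isoforms past this floor the medians were −0.02, 0.00 and −0.04. Some genes differed between groups in the make-up of their isoforms, and those below were picked after their values were seen. For NET1, the minor isoform was 10.8% of the gene's FPKM in PC3-EMT14 and 27.1% in PC3-Epi, against 16.4% and 15.7% in the OVOL1 and OVOL2 lines. It had a log2 ratio of 1.41 in PC3-Epi, whereas the major isoform had −0.21. For PFKFB3, the kinase that makes fructose-2,6-bisphosphate, 1 isoform was 48.8% in PC3-EMT14 and 70.0% in PC3-Epi and had a log2 ratio of 1.32, while the other stood at 0.03. The same isoform was 63.7% in the OVOL1 line and 57.8% in the OVOL2 line. For MCM10 the second isoform was 44.3% of the gene in PC3-EMT14, 32.5% in PC3-Epi, 11.4% in the OVOL1 line and 24.0% in the OVOL2 line. Shares of low genes rest on few reads, and the error of these splits is unknown.

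The other 35 members were under the floor. Of these 8 were listed at 0 in every group, namely NCRNA00200, NCRNA00168, IL2RA, UCN3, UCMA, LOC254312 and the microRNA genes MIR1265 and MIR3155. The remaining 27 had mean levels up to 0.761 FPKM, the highest being BEND7, and no ratio is given for them. Of the 8 extracellular or secreted genes that were found, 0 were past the floor. Of the 86 members, 18 share a locus with another gene in the tables, which concerns 10 of the 51 expressed ones. PC3-Epi carries another header label than the remaining groups, whose labels carry the word trim, and the part of read trimming in the difference was not tested.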

How the data were processed

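RNA was sequenced as paired-end reads, which the authors aligned with TopHat to the UCSC hg19 transcriptome. The authors made the deposited FPKM values with Cuffdiff, with upper-quartile normalization, correction for sequence bias and division of reads that map to several places. Cuffdiff pooled the samples of a group, so each table holds 1 FPKM per group, gene or isoform. The 4 gene tables and 4 isoform tables were used. They also hold the authors' fold changes, test statistics, p-values and q-values, which were not used. FastQC is named in the submitters' processing notes.

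Log2 ratios were recomputed from FPKM without a pseudocount, for genes with a mean of at least 1 FPKM over the 4 groups. PC3-EMT14 appears in 3 tables and its values were averaged for that mean only. The ratio between its highest and lowest value for a member had a median of 0.05 on the log2 scale. A 2-fold ratio was counted, beside its share of all genes past the floor. No test was made, since a group has 1 pooled value here and the authors' tests were not used. Genes named were the 5 highest and lowest per comparison, the 10 of highest level, examples of each role list by level and the genes at the limit. The members and the lists were chosen with earlier results of these data known. Python 3.11.15, numpy 2.4.6, pandas 2.3.3 and matplotlib 3.10.9 were used, and the code was tested on simulated data. The number of per-sample columns left unused was 0.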

Additional observations from a re-analysis of the deposited data

How the results depend on the processing

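Over 11 alternatives, of which 1 (leaving out genes that share a locus) was chosen after seeing the data, 145 of 176 values stayed within 0.1 (log2 medians) or 1.5 times (counts), and 31 moved. No median of at least 0.1 in size changed sign. Of those nearer to 0, the OVOL1 median was −0.01 with starts below 10 Mb and the OVOL2 median 0.00 after centring on all genes, both with the sign turned. The medians ranged from 0.73 to 0.91 for PC3-Epi, −0.01 to 0.07 for OVOL1, −0.04 to 0.00 for OVOL2 and −0.10 to −0.03 for OVOL2 against OVOL1. The 0.73 came with a pseudocount of 1, under which OVOL1 had 0 and OVOL2 1 gene 2-fold higher, and OVOL2 against OVOL1 0 lower.

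The share over all genes was not computed under these alternatives, so the counts here have no background beside them and are not read as results. With no floor, PC3-Epi had 2 of 70 genes 2-fold lower, and OVOL1 had 4 of 70 higher and 4 lower. OVOL2 had 7 of 69 higher and 5 lower, and OVOL2 against OVOL1 4 higher and 3 lower, with 27 of 69 higher at all. With a floor of 5 FPKM fewer genes entered (28), and PC3-Epi had 12 genes 2-fold higher and 26 higher at all, OVOL1 0 and 19, OVOL2 1 and 11, and OVOL2 against OVOL1 8 higher at all. With starts below 10 Mb (27 genes) PC3-Epi had 8 genes 2-fold higher and 24 higher at all, OVOL1 1 and 13, OVOL2 0 and 12, and OVOL2 against OVOL1 10 higher at all. With starts below 20 Mb, which adds VIM, 1 gene was 2-fold lower in PC3-Epi, 2 in OVOL2 and 2 in OVOL2 against OVOL1. Without genes that share a locus, LOC100216001 drops out, and 0 were 2-fold lower in OVOL2 and 0 in OVOL2 against OVOL1.

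No paired analysis was possible because the tables hold 1 pooled value per group, and for the same reason leaving out a replicate was not possible. The depth and the spread between samples are unknown, so ratios of genes near 1 FPKM have an error that cannot be given.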
